A study of Arabidopsis thaliana with 6 samples.

Results

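The 41 genes described here are nuclear genes of Arabidopsis thaliana for the photosystems, their light-harvesting antennae and plastocyanin, chosen by their locus identifiers among the 32833 loci counted in each library. They comprise 4 genes of the photosystem I antenna (LHCA1 to LHCA4), 9 of the major photosystem II antenna (LHCB1, LHCB2 and LHCB3 genes), 5 of the minor photosystem II antenna (LHCB4, LHCB5 and LHCB6 genes), 12 for photosystem I subunits (PSA genes), 9 for photosystem II subunits (PSB genes) and 2 for plastocyanin (PETE genes). All 41 loci were matched to the TAIR10.1 annotation, and 40 passed the filter on low counts. By the labels, RNA came from inflorescence meristems cut from stems 15 cm tall, with flower primordia removed up to flower stage 3 or 4. All plants had days of 16 hours of light and 8 hours of dark. The 3 control libraries are from the line pCLV3>>erTurquoise and the 3 libraries labelled VGD1 from the line pCLV3>>erTurquoise, >>VGD1, in which VGD1, a pectin methylesterase that acts on cell wall pectin, is placed under the same promoter. Plants of each group were sprayed with dexamethasone to release the transcription factor GR-LhG4, so the agent and the reporter are shared by the groups. The labels give the dexamethasone concentration once as 30 µM and once as 30 mM, and the time from induction to harvest once as 72 hours and once as 48 hours. The CLV3 promoter drives expression in the stem cells, a small part of the tissue sampled, and how many apices went into each library was not given in the sources used here.

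Photosystem II takes electrons from water and photosystem I passes them to ferredoxin, with plastocyanin carrying them between the cytochrome b6f complex and photosystem I. Antenna proteins hold chlorophyll and carotenoids and feed light energy to the reaction centres: LHCA proteins form a belt on photosystem I, while LHCB1, LHCB2 and LHCB3 form the trimers of photosystem II and LHCB4, LHCB5 and LHCB6 link these trimers to its core. Reaction centre proteins are encoded in the chloroplast and the genes described here in the nucleus, where they are known as strongly light-dependent genes of green tissue. Young cells of the shoot meristem hold small plastids that develop into chloroplasts as organs form.

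Sequences set a limit on what the counts of close copies can show, and LHCB1 is the family with the most copies. The first 150 coding bases of the LHCB1 genes on chromosome 1 are given below from the TAIR10.1 genome of RefSeq, read 5′ to 3′ on the coding strand, with capitals at the 10 positions where the copies are not all the same.
LHCB1.1: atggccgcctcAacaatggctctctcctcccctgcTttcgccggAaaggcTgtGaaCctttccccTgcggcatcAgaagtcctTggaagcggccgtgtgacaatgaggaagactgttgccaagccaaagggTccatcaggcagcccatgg
LHCB1.2: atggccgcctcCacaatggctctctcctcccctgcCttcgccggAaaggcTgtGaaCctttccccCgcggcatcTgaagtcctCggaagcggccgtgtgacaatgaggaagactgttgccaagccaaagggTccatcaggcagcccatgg
LHCB1.3: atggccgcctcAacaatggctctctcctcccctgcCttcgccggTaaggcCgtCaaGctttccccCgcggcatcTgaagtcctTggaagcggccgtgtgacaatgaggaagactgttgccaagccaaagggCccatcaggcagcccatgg
Over their 804 coding bases these copies were 95.6% to 96.4% identical. Of all windows of 50 bases in their transcripts, 79.5% of LHCB1.1, 89.4% of LHCB1.2 and 78.0% of LHCB1.3 occurred in no transcript of another gene. For LHCB2.1 and LHCB2.2 the shares were 77.3% and 71.8%. With windows of 100 bases every one of these 5 genes was at or above 87.6%. The read length was not given in the sources used here, so some reads of these 5 genes may have been split between copies or dropped.

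Promoters are shown as a description, and a link between their motifs and the shared variation between libraries was not tested. The 250 bases before the annotated start are given for LHCB1.3, LHCB6 and PSBQ2, 3 of the 8 members whose groups did not overlap. In these 8 all labelled libraries were below all controls, an order held by 9.02% of all tested genes. The 3 are not typical of the 8, as LHCB1.4 and PSAG held none of the motifs marked below and the G-box of PSAE1 lies after the start. Capitals mark a G-box (CACGTG), an I-box (GATAAG) or the letters CCAATC on either strand, where GATTGG is CCAATC read from the other strand. LHCB1.3 lies at chr1:10477635-10477884 on the plus strand, LHCB6 at chr1:5447881-5448130 on the minus strand and PSBQ2 at chr4:2673244-2673493 on the minus strand of TAIR10.1.
LHCB1.3: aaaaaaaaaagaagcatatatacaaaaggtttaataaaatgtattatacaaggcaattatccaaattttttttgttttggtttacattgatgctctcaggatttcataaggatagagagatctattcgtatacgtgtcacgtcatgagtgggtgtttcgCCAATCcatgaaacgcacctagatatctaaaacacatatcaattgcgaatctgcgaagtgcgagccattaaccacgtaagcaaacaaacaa
LHCB6: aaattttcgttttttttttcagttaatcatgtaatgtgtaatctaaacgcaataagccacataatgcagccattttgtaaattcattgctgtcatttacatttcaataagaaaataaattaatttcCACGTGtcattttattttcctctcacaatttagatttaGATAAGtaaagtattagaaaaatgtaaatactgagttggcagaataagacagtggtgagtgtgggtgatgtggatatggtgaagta
PSBQ2: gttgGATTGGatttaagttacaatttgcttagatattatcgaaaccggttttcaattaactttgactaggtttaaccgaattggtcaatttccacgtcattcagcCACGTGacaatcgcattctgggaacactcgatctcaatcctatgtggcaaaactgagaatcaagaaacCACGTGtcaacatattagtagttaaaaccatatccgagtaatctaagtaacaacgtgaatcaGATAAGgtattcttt
In windows from 250 bases before to 50 bases after the start, a G-box stood in 14 of 41 members (34.1%) and in 7.7% of 27443 protein-coding genes. The I-box stood in 19 members (46.3%) and in 14.6% of all these genes, and CCAATC in 16 members (39.0%) and in 12.3%. At least 1 of these motifs was present in 31 of the 41 members. The letters AAAAATCT, known as a binding site of the clock protein CCA1, stood in 6 members (14.6%) against 7.9% of all, and the evening element AAATATCT in 0 against 5.6%. TATAAA was found in 20 members (48.8%) and in 52.1% of all genes. None of these motifs contains another, and a match is a description of the letters only.

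Control replicate 3 was the shallowest library, with 6638772 counts, and the other 5 held 18432365 to 24437872. VGD1 itself did not mark the libraries labelled with it: it stood at 11.4, 12.7 and 4.80 CPM in the controls and at 6.59, 7.92 and 7.11 CPM in the libraries labelled VGD1. Directions below are therefore those of labelled libraries against controls. STM, which marks the shoot meristem, was present at 60.3 to 90.5 CPM in every library. CLV3, the marker of stem cells, was at 0 counts in each control and at 3 to 11 counts in each library of the other group. These counts lie near the floor of 3 counts used here, and CLV3 did not pass the filter and was not tested. Nothing in the labels ties replicates to separate plantings, so the p-values reflect only how these 6 libraries varied, which may be technical.

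Antenna and photosystem RNA was abundant in these dissected tips, and it cannot be assigned to the meristem itself. The 11 markers of the tapetum of older anthers summed to 363 to 1302 CPM per library. The 7 genes listed for the meristem summed to 334 to 407 CPM. The 41 genes took 2.69% to 3.86% of all counts in a library, and 15 of them were among the 100 most abundant genes tested. LHCB1.3 had the highest mean CPM of all 19719 genes tested. Counted per kilobase of exon, the control level of LHCB1.3 was 4461 ± 677 CPM per kilobase (SD, n = 3). Next came LHCB1.1 at 1847 ± 423, LHCB1.2 at 1797 ± 339, LHCA4 at 1553 ± 257, LHCB5 at 1417 ± 171 and PSBR at 1375 ± 228 CPM per kilobase, and neighbours in this order lay within each other's spread. LHCB1.3 alone was above the rest in every control. At the lower end were PSAE1 at 100.4, LHCB4.3 at 95.4 and PSAG at 91.7 CPM per kilobase, and LHCB1.4 at 33.0 ± 10.2 CPM per kilobase.

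**Figure D1:**
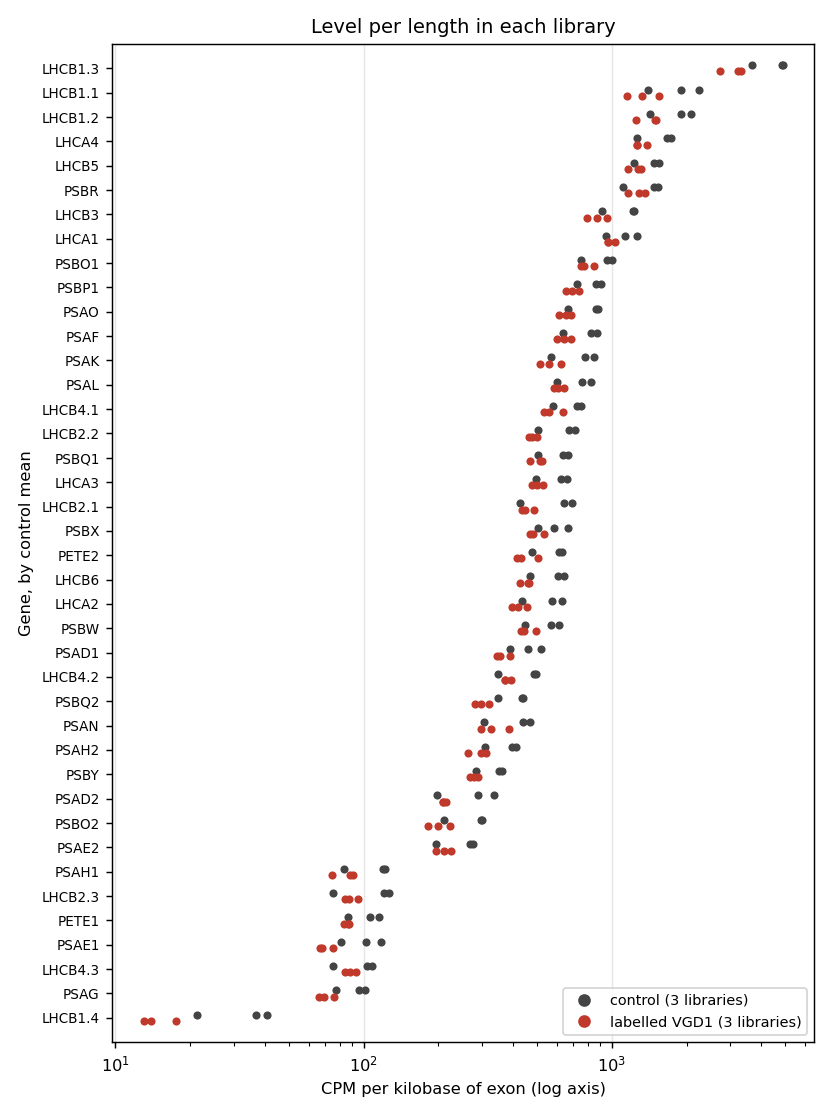
Level of 40 genes in each library in CPM per kilobase of exon on a log axis, ordered by the control mean, with 1 point per library (controls in grey, libraries labelled VGD1 in red). LHCB1.3 stands highest, at 2732 to 4874 CPM per kilobase, and LHCB1.4 lowest, at 13.1 to 40.7 CPM per kilobase; LHCB1.5, at 0 in every library, is left out.

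LHCB1.5 (AT2G34420), a gene of the major antenna on chromosome 2, had 0 counts in all 6 libraries, where 3 counts would be 0.124 to 0.45 CPM. In the annotation its exons are covered by AT2G08665, a noncoding RNA gene on the other strand that also had 0 counts in every library, and no window of 50 or of 100 bases of its transcript was free of that gene. Of its windows of 50 bases, 172 also occurred in LHCB1.4, so the level of LHCB1.4 is uncertain to that extent. Whether reads over such pairs were assigned at all depends on a strand setting not stated by the labels or file headers, so the 0 does not show that LHCB1.5 is silent. Of the 41 members, 15 overlapped an annotated gene on the other strand. Among those tested the overlap was longest for PSAH1 (693 of 1300 exon bases), LHCB2.3 (595 of 1465) and PSAG (479 of 780), and the levels per kilobase of these genes may be too low for the same reason.

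Summed over the members, the level in control replicates 1, 2 and 3 was 37217, 39031 and 28476 CPM, and in replicates 1, 2 and 3 labelled VGD1 it was 25947, 29805 and 27806 CPM. Controls 1 and 2 were thus the high libraries, and control replicate 3 lay among the libraries labelled VGD1. The mean sum was 34908 ± 5644 CPM for controls and 27853 ± 1929 CPM for the labelled group (SD, n = 3 each), a ratio of 0.798. In each of the 40 tested members, controls 1 and 2 were both above all 3 libraries labelled VGD1, an order found in 17.7% of all tested genes. Control replicate 3 was above all 3 of them in 8 members (20%, against 29.6% of all tested genes), within their range in 24 (60%, against 41.4%) and below it in 8 (20%, against 29%). Control replicate 2 was the highest library for 33 members and control replicate 1 for the other 7. The lowest library was replicate 1 labelled VGD1 for 27 members and control replicate 3 for 8. Because whole dissected tips were sequenced, fewer green cells and less of this RNA per cell cannot be told apart.

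**Figure D2:**
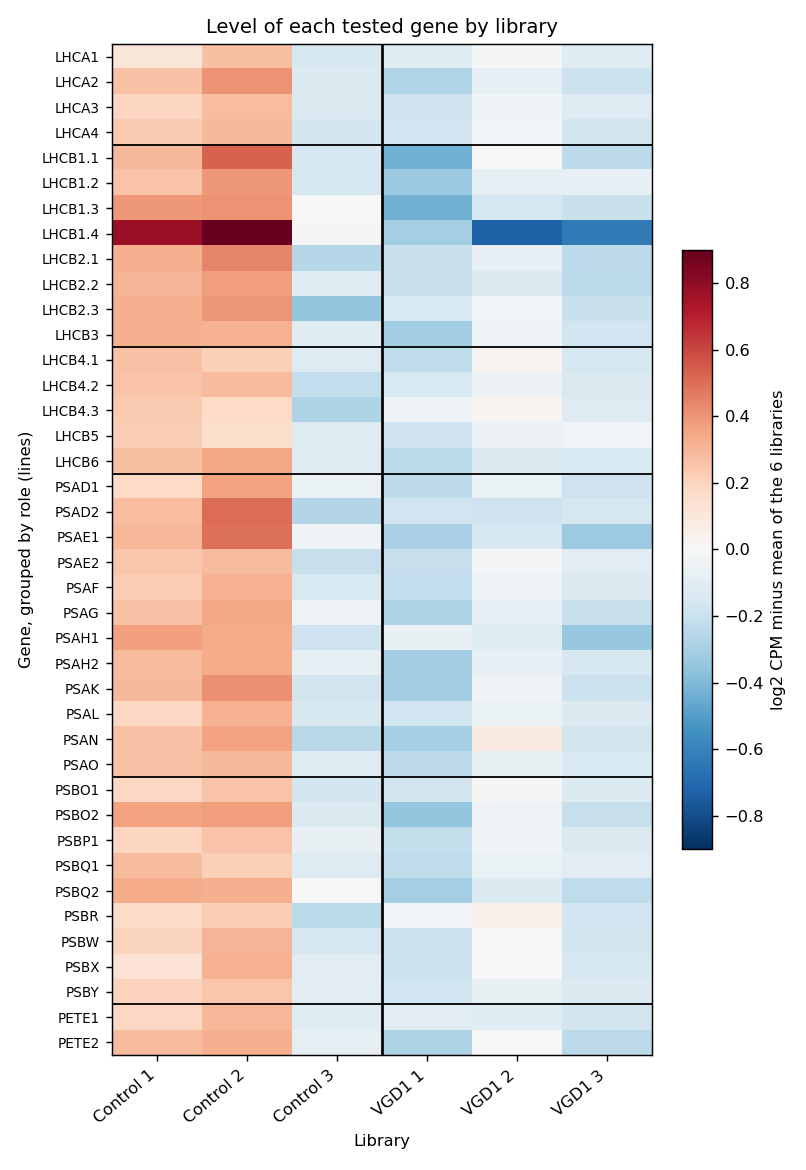
Level of the 40 tested genes (rows, grouped by role) in each library (columns), as log2 CPM minus the mean of the 6 libraries. The median over genes was 0.26 and 0.32 in control replicates 1 and 2, -0.13 in control replicate 3, and -0.22, -0.05 and -0.16 in replicates 1, 2 and 3 labelled VGD1; LHCB1.4 has the widest range.

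Tested gene by gene, all 40 members had a log2 fold change below 0, with a median of -0.30 and a range from -1.20 to -0.11, where the median of all tested genes was -0.0004 and 50.1% lay below 0. None of the 40 passed an adjusted p of 0.05 in the edgeR quasi-likelihood test, a threshold that 0.416% of the 19719 tested genes passed (0.314% as lower and 0.101% as higher). The lowest adjusted p among the members was 0.072. At an unadjusted p of 0.05, 24 of the 40 were lower, against 8.36% of all tested genes, and 0 were higher, against 5.22%. The 3 libraries labelled VGD1 lay below all 3 controls in 8 members (20.0%) and in 9.02% of tested genes, and in 0 members above, against 8.17%. The members vary together between libraries and so are not 40 separate observations. Without control replicate 1 the median was -0.24 and without control replicate 2 it was -0.22, with 0 members called and a lowest edgeR adjusted p of 0.243 and 0.309. Without control replicate 3 it was -0.43 and 4 members were called lower (LHCB1.4, PSAD2, PSAE1 and PSBQ2), as were 0.808% of all genes. On all 6 libraries DESeq2 called LHCB1.3, LHCB1.4, PSAE1 and PSBQ2 lower, as it did 1.46% of all genes, and limma-voom called 0 members.

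**Figure D3:**
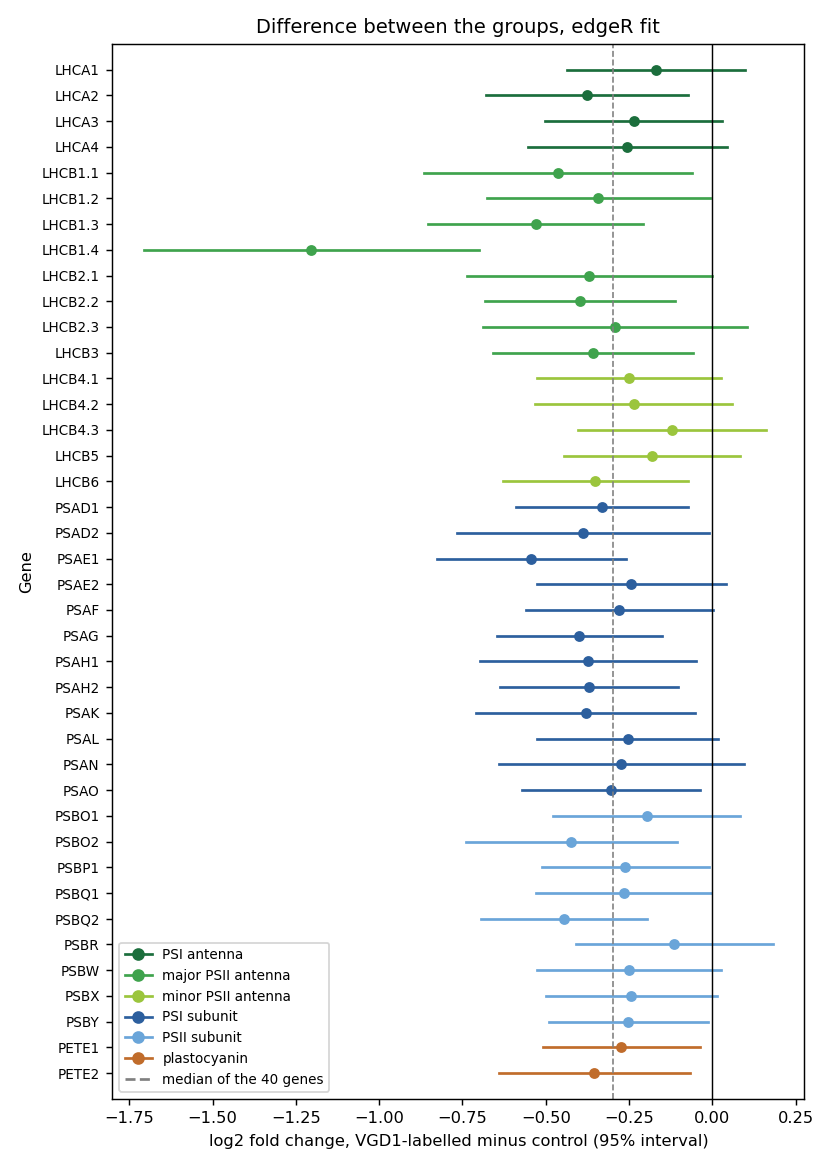
Log2 fold change of each tested gene, libraries labelled VGD1 minus controls, from the edgeR fit with its 95% interval, coloured by role; the dashed line is the median of the 40 genes. All points lie below 0, from -1.20 for LHCB1.4 to -0.11 for PSBR, and 24 intervals lie wholly below 0 before adjustment for multiple tests.

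The photosystem I antenna genes had a median log2 fold change of -0.25, smaller than that of all 40 members. LHCA4 (AT3G47470), a protein of the antenna dimers that absorb at long wavelengths, stood at 2159.5, 2244 and 1630.3 CPM in the controls and at 1629, 1796 and 1633 CPM in the libraries labelled VGD1. LHCA2 (AT3G61470) stood at 805, 889.6 and 613 CPM against 555, 639 and 589 CPM, a log2 fold change of -0.38 (SE 0.14, edgeR adjusted p = 0.266), the largest difference of the 4. LHCA1 (AT3G54890), with 1434, 1605 and 1201 CPM against 1228, 1314 and 1232 CPM, had the smallest, at -0.17 (SE 0.12, edgeR adjusted p = 0.600). In all 4 genes the groups overlapped through control replicate 3, and LHCA3 was between these at -0.24.

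The genes of the major photosystem II antenna had a median log2 fold change of -0.38, the largest of the 6 roles. LHCB1.3 (AT1G29930) stood at 5940.4, 5995 and 4526 CPM in the controls and at 3361, 4083 and 3959.95 CPM in the libraries labelled VGD1. Every labelled library was below every control, a log2 fold change of -0.53 (SE 0.14, edgeR adjusted p = 0.169). LHCB1.1 (AT1G29920) stood at 2501, 2943 and 1838 CPM against 1513, 2037 and 1735.45 CPM (log2 -0.46, edgeR adjusted p = 0.298). LHCB1.2 (AT1G29910) stood at 2316, 2539 and 1736 CPM against 1533, 1828 and 1843 CPM (log2 -0.34, edgeR adjusted p = 0.357). In these neighbours of LHCB1.3 the groups overlapped. LHCB1.4 (AT2G34430), on chromosome 2, was far less abundant, with 48.4, 53.3 and 28.0 CPM in the controls and 23.0, 17.1 and 18.3 CPM in the libraries labelled VGD1. Its log2 fold change of -1.20 (SE 0.22, 95% interval -1.71 to -0.70) was the largest of all members, at an adjusted p of 0.072 in the edgeR test.

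LHCB2 proteins, like LHCB1 proteins, are phosphorylated by the kinase STN7 when part of the antenna moves between the photosystems. LHCB2.1 (AT2G05100) stood at 898, 973 and 599.9 CPM in the controls and at 625, 681 and 611 CPM in the libraries labelled VGD1. LHCB2.2 (AT2G05070) stood at 769, 811 and 576 CPM against 543, 569.9 and 528 CPM, with no overlap between the groups (log2 -0.40, SE 0.13, edgeR adjusted p = 0.223). LHCB2.3 (AT3G27690) stood at 176, 185 and 110.2 CPM against 128, 138 and 123 CPM, and here control replicate 3 was the lowest of all libraries. LHCB3 (AT5G54270), the third trimer protein, was at 1524, 1518 and 1136 CPM against 986, 1190.5 and 1085 CPM (log2 -0.36, edgeR adjusted p = 0.283). STN7 itself was at 49.3 to 55.9 CPM in the controls and 46.5 to 55.7 CPM in the labelled libraries (log2 -0.07, edgeR adjusted p = 0.827).

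Minor antenna proteins bind singly between trimers and core. LHCB5 (CP26, AT4G10340), the most abundant of these genes, stood at 2149.8, 2055 and 1699 CPM in the controls and at 1621, 1773 and 1814 CPM in the libraries labelled VGD1 (log2 -0.18, edgeR adjusted p = 0.558). LHCB6 (CP24, AT1G15820) stood at 731, 774 and 561 CPM against 514, 557 and 553 CPM, and all labelled libraries were below all controls (log2 -0.35, SE 0.12, edgeR adjusted p = 0.258). LHCB4.3 (AT2G40100), the least abundant of the 3 CP29 genes, stood at 156, 149 and 109 CPM against 128, 135 and 122 CPM. Its groups overlapped widely, with a log2 fold change of -0.12 (95% interval -0.40 to 0.16, edgeR adjusted p = 0.742). LHCB4.1 and LHCB4.2 lay between, at -0.25 and -0.24.

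**Figure D4:**
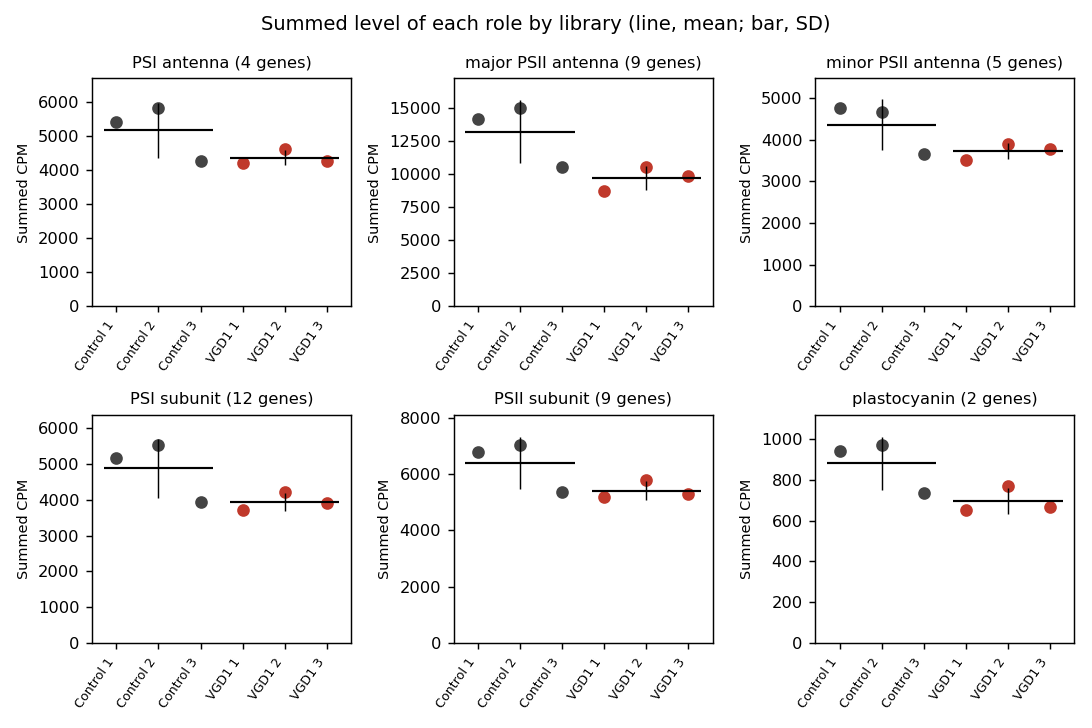
Summed CPM of the genes of each role in each library, with the group mean as a line and its SD as a bar. In every role control replicates 1 and 2 are the highest libraries; the major photosystem II antenna goes from 14174 and 15018 CPM in these down to 10550 CPM (control replicate 3) and 8712 to 10545 CPM (labelled libraries).

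Photosystem I subunit genes had log2 fold changes from -0.54 to -0.24, with a median of -0.35. PSAF (AT1G31330), which helps plastocyanin dock, was the most abundant, at 991, 1048 and 767 CPM in the controls and 724, 821 and 771 CPM in the libraries labelled VGD1 (log2 -0.28, edgeR adjusted p = 0.374). PSAE and PSAD form the stromal side where ferredoxin is reduced, and each has a pair of genes. PSAE1 (AT4G28750) stood at 81.8, 93.8 and 64.8 CPM against 54.3, 59.8 and 52.98 CPM, with no overlap (log2 -0.54, SE 0.13, edgeR adjusted p = 0.114). PSAE2 (AT2G20260) stood at 164, 167 and 119 CPM against 119, 136 and 128 CPM, with overlap (log2 -0.24, SE 0.13, edgeR adjusted p = 0.446). PSAD1 (AT4G02770), at 519, 589 and 439.3 CPM against 389.7, 438.9 and 404 CPM, did not overlap, though control replicate 3 exceeded replicate 2 labelled VGD1 by less than 1 CPM. PSAD2 (AT1G03130) stood at 275, 322 and 189 CPM against 200.4, 200.1 and 205 CPM (log2 -0.39, edgeR adjusted p = 0.353), and the 3 labelled libraries were close together while the controls were spread. PSAH proteins form the docking side for the mobile antenna, and PSAH1 (AT3G16140) and PSAH2 (AT1G52230) had log2 fold changes of -0.37 each (edgeR adjusted p = 0.299 and 0.223). Among the others, PSAG (AT1G55670) was also without overlap, at 74.8, 79.2 and 60.6 CPM against 51.5, 59.0 and 54.1 CPM (log2 -0.40, SE 0.11, edgeR adjusted p = 0.178). PSAK, PSAL, PSAN and PSAO overlapped, with log2 fold changes from -0.38 to -0.25.

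Photosystem II subunit genes encode the extrinsic proteins of the oxygen-evolving complex (PSBO, PSBP and PSBQ) and small proteins around the core. PSBO1 (AT5G66570), the main gene of the manganese-stabilising protein, stood at 1443, 1516 and 1133 CPM in the controls and at 1133, 1275 and 1164 CPM in the libraries labelled VGD1 (log2 -0.20, SE 0.13, edgeR adjusted p = 0.544). Its second copy PSBO2 (AT3G50820) stood at 393, 398 and 280.4 CPM against 241, 297 and 265 CPM (log2 -0.42, SE 0.14, edgeR adjusted p = 0.237). In each copy the groups overlapped. PSBQ2 (AT4G05180) stood at 559, 555 and 443 CPM against 359, 408 and 379 CPM, with no overlap and the smallest p of this role (log2 -0.45, SE 0.11, edgeR adjusted p = 0.136). PSBQ1 (AT4G21280) stood at 663, 634 and 502 CPM against 465, 524 and 511 CPM (log2 -0.27, edgeR adjusted p = 0.358). PSBR (AT1G79040), a lumenal protein needed for stable binding of the extrinsic proteins, had the smallest difference of all 40 genes, at 1158, 1203 and 874 CPM against 1012, 1066 and 915 CPM (log2 -0.11, 95% interval -0.41 to 0.18). PSBP1, PSBW, PSBX and PSBY had log2 fold changes from -0.26 to -0.24, and their groups overlapped.

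Plastocyanin RNA came mostly from PETE2 (AT1G20340), which stood at 828, 851 and 642 CPM in the controls and at 561, 678 and 579 CPM in the libraries labelled VGD1. The log2 fold change of PETE2 was -0.35 (SE 0.13, edgeR adjusted p = 0.267), and its groups overlapped. PETE1 (AT1G76100) stood at 111, 120.3 and 90.9 CPM against 91.2, 90.7 and 87.0 CPM (log2 -0.27, edgeR adjusted p = 0.298), and control replicate 3 lay within the range of the labelled libraries.

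Shares within a library do not depend on its depth or scaling, and some of these separated the groups. The major photosystem II antenna made up 38.1%, 38.5% and 37.1% of the members' CPM in the controls and 33.6%, 35.4% and 35.6% in the libraries labelled VGD1, a mean difference of -3.01 percentage points. Its genes did not contribute alike. The ratio of group means, labelled over control, was 0.693 for LHCB1.3, 0.726 for LHCB1.1 and 0.450 for the scarce LHCB1.4. For LHCB1.2, the LHCB2 genes and LHCB3 it was 0.761 to 0.826, near the 0.798 of the summed members. The shares of the photosystem I antenna, the minor antenna and photosystem II subunits were higher in every labelled library than in every control, by 0.88, 0.87 and 1.1 points on average, while photosystem I subunits and plastocyanin overlapped. The share of 1 role is higher where that of another is lower, so these are not separate observations. Control replicate 3 lay with the labelled libraries in total level. A share without overlap has it on the side of the other controls by definition, so its place in these 4 shares adds nothing.

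In some families the share of 1 copy also separated the groups. PSAE2 made up 66.7%, 64.1% and 64.7% of PSAE RNA in the controls and 68.7%, 69.5% and 70.7% in the libraries labelled VGD1. PSBO1 made up 78.6%, 79.2% and 80.2% of PSBO RNA against 82.5%, 81.1% and 81.5%. PSBQ1 made up 54.3%, 53.3% and 53.1% of PSBQ RNA against 56.4%, 56.2% and 57.4%. In each of these families the labelled libraries were all higher. The larger log2 fold change of the other copy (PSAE1, PSBO2 or PSBQ2) is the same difference stated another way. LHCB1.2 made up 21.4%, 22.0% and 21.4% of LHCB1 RNA against 23.8%, 22.95% and 24.4%, and LHCB2.3 made up 9.56%, 9.41% and 8.57% of LHCB2 RNA against 9.90%, 9.96% and 9.73%. The shares of PSAD1, PSAH2, PETE2, LHCB1.1, LHCB1.3, LHCB1.4, LHCB2.1 and LHCB2.2 overlapped between the groups. With 3 libraries against 3, the two-sided exact permutation test cannot give a p below 0.1, which the 9 shares without overlap reached, and over the 19 shares examined their adjusted p was 0.211. Among single tested genes, 9.02% had all labelled libraries below all controls and 8.17% had them above. No such background was worked out for shares of other genes, and the 19 shares partly depend on each other. Of the windows of 50 bases in PSAE1, 70.9% were free of its overlapping neighbours and other genes. The LHCB1 copies share sequence, as do LHCB2.1 and LHCB2.2. LHCB2.3 shared no window of 50 bases with these copies, but only 61.4% of its windows were free of AT3G27700, which overlaps it on the other strand. PSBO and PSBQ copies had no shared window of 50 bases.

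**Figure D5:**
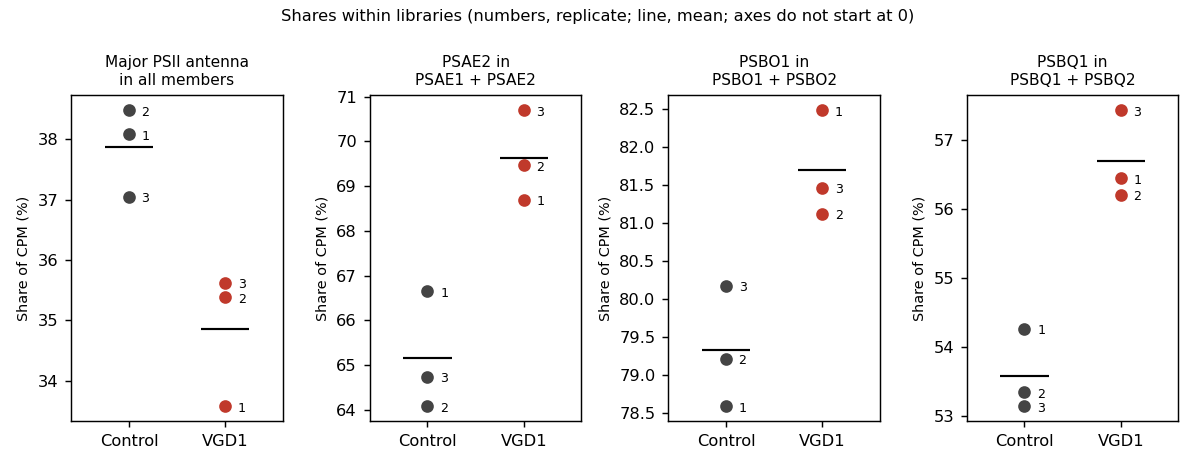
Shares of CPM within each library (percent) for the major photosystem II antenna among all members and for PSAE2, PSBO1 and PSBQ1 among the RNA of their own pair; points are libraries with the replicate number, lines are group means, and the axes do not start at 0. In each panel the 3 libraries labelled VGD1 lie on 1 side of the 3 controls, with group means of 37.9% and 34.9% for the antenna, 65.2% and 69.6% for PSAE2, 79.3% and 81.7% for PSBO1, and 53.6% and 56.7% for PSBQ1.

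Members with and without each promoter motif are set side by side as a description. The median log2 fold change was -0.28 in the 14 tested members with a G-box and -0.32 in the 26 without. It was -0.30 with and -0.29 without an I-box, and -0.28 with and -0.33 without CCAATC. The 6 members with the CCA1 site, among them LHCB1.1, LHCB1.3 and LHCB1.4, had a median of -0.38 against -0.29 in the other 34. No test was made of these medians.

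Genes that work with the photosystems were mostly below 0 too, and none of them passed the test. Of 12 tested genes of electron transport (cytochrome b6f, ferredoxins, ferredoxin-NADP reductases, cyclic flow and ATP synthase) 11 were below 0, with a median log2 of -0.28. ATPD, the delta subunit of the chloroplast ATP synthase, had the smallest p of these, at 192, 220.5 and 175 CPM against 122, 152 and 143 CPM (edgeR adjusted p = 0.106). Of 19 other photosystem and antenna-like genes 17 were below 0 (median -0.26), with PSB28, a factor of photosystem II assembly, at 63.1, 71.2 and 63.3 CPM against 42.1, 57.0 and 46.4 CPM (edgeR adjusted p = 0.166). The exceptions were ELIP1 and ELIP2, early light-induced proteins that bind pigment under light stress, at log2 0.34 and 0.05. All 15 factors of antenna insertion, phosphorylation, photosystem assembly and the xanthophyll cycle were below 0 (median -0.24), and in 9 of the 15 all labelled libraries were below all controls, an order held by 9.02% of all tested genes. Among them NPQ1, the violaxanthin de-epoxidase, stood at 31.2, 35.0 and 27.3 CPM against 21.1, 20.7 and 23.1 CPM (edgeR adjusted p = 0.091).

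Chlorophyll synthesis genes had a median log2 of -0.22, with 17 of 18 tested genes below 0. PORB, a light-dependent protochlorophyllide reductase, stood out from them at 341, 367 and 434 CPM in the controls and 129, 104 and 231 CPM in the libraries labelled VGD1 (log2 -1.29, SE 0.30, edgeR adjusted p = 0.166). Control replicate 3 was the highest library for PORB, unlike for any member. CHLH, the large subunit of magnesium chelatase, had overlapping groups at 1116, 1173 and 896 CPM against 1001, 1042 and 986 CPM. Regulators of photosynthesis genes had a median log2 of -0.11 with 13 of 17 below 0, and SIG2, a plastid sigma factor, had the smallest p, at 67.9, 75.4 and 73.8 CPM against 49.7, 62.7 and 58.3 CPM (edgeR adjusted p = 0.202). GLK1 and GLK2, transcription factors that activate antenna genes, had log2 fold changes of -0.10 (95% interval -0.29 to 0.09) and 0.08 (-0.24 to 0.41). Of the 20 chloroplast loci listed for photosystem proteins 16 were tested, at 44.7 to 103.9 CPM in sum per library, and 10 were below 0 and 6 above (median -0.16), with poly(A) selection limiting what can be read from these.

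Markers of tissues that a dissected tip may hold also differed between libraries, and none of them passed the test. All 5 xylem and fibre markers were below 0 (median log2 -0.67). Their sums were 188, 229.9 and 163 CPM in the controls and 94.5, 161 and 114 CPM in the libraries labelled VGD1. All 4 phloem markers were below 0 (median -0.30), with sums of 135, 164 and 122 CPM against 84.7, 129 and 110.5 CPM. Of these SUC2, the sucrose transporter of companion cells, stood at 72.3, 73.1 and 60.3 CPM against 43.3, 51.5 and 48.3 CPM, with no overlap (log2 -0.54, SE 0.11, edgeR adjusted p = 0.072). Of 11 tapetum markers 10 were below 0 (median -0.75), with sums of 1099 to 1302 CPM in the controls and 1097, 363 and 559 CPM in the labelled libraries, so replicate 1 labelled VGD1 was at the level of the controls there. Markers of the stomatal lineage, whose guard cells are green, overlapped, at 97.9 to 106.3 CPM against 83.0 to 111.5 CPM in sum (8 of 10 below 0, median -0.13). All 4 epidermal markers were above 0 (median 0.23), though FDH only at log2 0.007. Their sums overlapped, at 1573 to 1921 CPM against 1880 to 2165 CPM. Of 6 tested genes listed for the meristem 4 were above 0 and 2 below (median 0.17). In sum the list stood at 334 to 364 CPM against 341 to 407 CPM. It includes LFY and ANT, genes of floral meristem identity and organ initiation, so it does not stand for the meristem alone. In LFY and CLV1 all labelled libraries were above all controls, an order held by 8.17% of all tested genes. STM (log2 0.17) and ANT (log2 0.17) overlapped, as did the 2 below 0, KNAT1 (log2 -0.06) and WUS (log2 -0.35, at 1.51 to 4.60 CPM). LFY stood at 21.5, 17.0 and 25.3 CPM against 33.8, 29.1 and 28.7 CPM (log2 0.57, SE 0.15, edgeR adjusted p = 0.152). CLV3 at 0 in the controls was the only defining marker without counts there. The part of these tissues in the lower photosystem and antenna RNA was not tested.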

How the data were processed

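Each of the 6 libraries has a table of raw read counts per locus, deposited by the authors without normalization. The alignment was made with RNA STAR, per the file headers; the submitters' processing notes also list TAIR10 and DESeq2, with neither role nor version. Counting tool and strand setting were not given in the sources used here. All rows carried a locus identifier, and 7374 loci were at 0 throughout. Chi-square values per gene between replicates of a group were 8.82 to 22.39, above sampling noise, so each library counts once.

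Titles gave the groups and replicate numbers. Genes were tested with edgeR 4.0.16 (R 4.3.3), using TMM factors, filterByExpr (minimum count 10, minimum total 15), glmQLFit (robust, not legacy) and a two-sided quasi-likelihood F test, adjusted by Benjamini-Hochberg over 19719 genes at 0.05. CPM values carry TMM factors; SEs come from the F statistic, and 95% intervals from a t distribution with the fit's degrees of freedom. The floor of 3 counts covers counting error only. Shares were compared by exact permutation (scipy 1.17.1). Alternatives were RLE factors, library totals, no filter, 1 CPM in 3 libraries, DESeq2 1.42.0, limma-voom (limma 3.58.1), the replicate number as a block and leaving out each library.

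Sequences, names, exon lengths and overlaps came from RefSeq's TAIR10.1, which matched 32548 of the 32833 loci by locus tag. It is named differently from the authors' build, so its coordinates describe TAIR10.1 only. The chloroplast loci were listed by hand and are not named singly. Members and lists were chosen with earlier results of these data known, including lower photosynthesis RNA in the libraries labelled VGD1, so the common direction of the members is not independent support. Members named with their values are, in each role, those with the highest CPM, the smallest p and the largest and smallest log2 fold change, with all LHCB1 and LHCB2 genes and all pairs of copies; in each other list of nuclear pathway genes the gene with the smallest p is named. LHCB3, PSAG, STN7, CHLH, GLK1, GLK2, ELIP1, ELIP2, STM, CLV3, CLV1, LFY, ANT, KNAT1, WUS, FDH and SUC2 were added after their values were seen.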

Additional observations from a re-analysis of the deposited data

How the results depend on the processing

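All 40 tested members kept a log2 fold change below 0 in each alternative run. The median ranged from -0.43 (without control replicate 3) to -0.22 (without control replicate 2) when 1 library was left out, and was -0.26 with library totals alone, where the median of all genes moved to 0.03. In 26 members with no gene on the other strand, a choice made after seeing the data, it was -0.29. No member was called in the main edgeR run, where 0.314% of all genes were called lower. DESeq2 called 4 members lower, as it did 1.46% of all genes. The edgeR fit with the replicate block called 1 (LHCB1.4, adjusted p = 0.0429) and 0.603% of all genes lower. With 1 library left out edgeR called 0 to 4, the 4 being without control replicate 3, where 0.808% of all genes were called lower. The number of genes called over the whole table was 82, against 139 with no filter, 424 with DESeq2, 45 with limma-voom, 194 with the replicate block, and 4 to 201 when 1 library was left out. Deviations of same-numbered libraries correlated at 0.01, 0.04 and 0.12, so the numbers are not shown to pair the libraries. The cause of these changes was not tested. The 6638772 counts of control replicate 3, the shallowest library, still gave each tested member well over the floor of 3 counts.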
